A study of Mus musculus with 7 samples.

Results

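The transcripts that house dust mite extract changed in lung CD11b+ conventional dendritic cells (cDC2s) of wild type mice were described from 4 arrays, 2 after mite extract and 2 after PBS, across 19938 genes. All 4 arrays held cells of female C57Bl/6 mice with no altered allele, each a pool from 10 animals, collected 12 hours after 100 µg of extract or after saline. The sort took CD11c+ MHC-II+ cells that were CD11b+ but Ly6C- and CD64-. The remaining 3 of the 7 arrays of the series, from mite-treated Irf3-deficient mice, served only to estimate the spread between arrays. The labels give no age and no route of treatment, and they do not say whether pools were sorted on separate days. The p-values therefore measure the spread between these pooled samples, and animals within a pool cannot be seen.

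House dust mite extract holds proteases, lipids and microbial products that pattern recognition receptors of the airway detect. Conventional dendritic cells take up such material, mature, carry it along lymphatics to the draining lymph node and present it to T cells with costimulation and cytokines. Maturation usually involves a switch from capture to presentation: uptake receptors are lost while costimulatory molecules, cytoskeletal regulators and the chemokine receptor CCR7 are gained. Type I interferon, released when some of these receptors are engaged, induces a large set of antiviral genes of its own.

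Differences below are log2 values, mite extract minus PBS, ± their standard error, from limma over all 19938 genes with Benjamini-Hochberg adjusted p, 2 arrays per wild type group. A gene was called at an adjusted p under 0.05, and "rose" or "fell" is used only of called genes. At this threshold 3505 genes were called, 17.6% of those tested, with 1664 higher (8.35%) and 1841 lower (9.23%). At an unadjusted p under 0.05 there were 5586. The groups of 10487 genes, 52.6% of all, did not overlap. A lack of overlap in a named gene is therefore common and adds little to its call. The counts of list members given below are to be read against 8.35% higher and 9.23% lower over all genes.

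A list of 282 known interferon-induced and interferon pathway genes was set apart to see what remained. Of the 235 with a level, 188 rose and 4 fell, with a median difference of 1.47 against 0.03 over all genes. Slfn1, a Schlafen family gene, rose from 8.02 and 7.50 after PBS to 12.28 and 12.93 after mite extract, 28.8-fold (95% interval 19.2 to 43.2). Among the 19703 other genes 3313 were called (16.8%), 1476 higher and 1837 lower. Leaving out treated sample 2 lowered the count over all genes to 2333 and the count outside the interferon list to 2149.

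The interferon genes made up a larger share of the large rises than of the small ones. They made up 23 of the 25 largest rises, 68 of the 100 largest and 103 of the 200 largest. By size, they were 63.9% of the rises of at least 4-fold, 32.7% of those of at least 2-fold and 11.3% of all rises. Outside the list 516 genes changed at least 2-fold, 315 upward and 201 downward, and 48 changed at least 4-fold, 43 upward and 5 downward. A gene outside the list can still respond to interferon, which was not tested. With a wider rule that set aside 352 genes by family name, 3281 genes were called and 511 of them changed at least 2-fold.

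**Figure D1:**
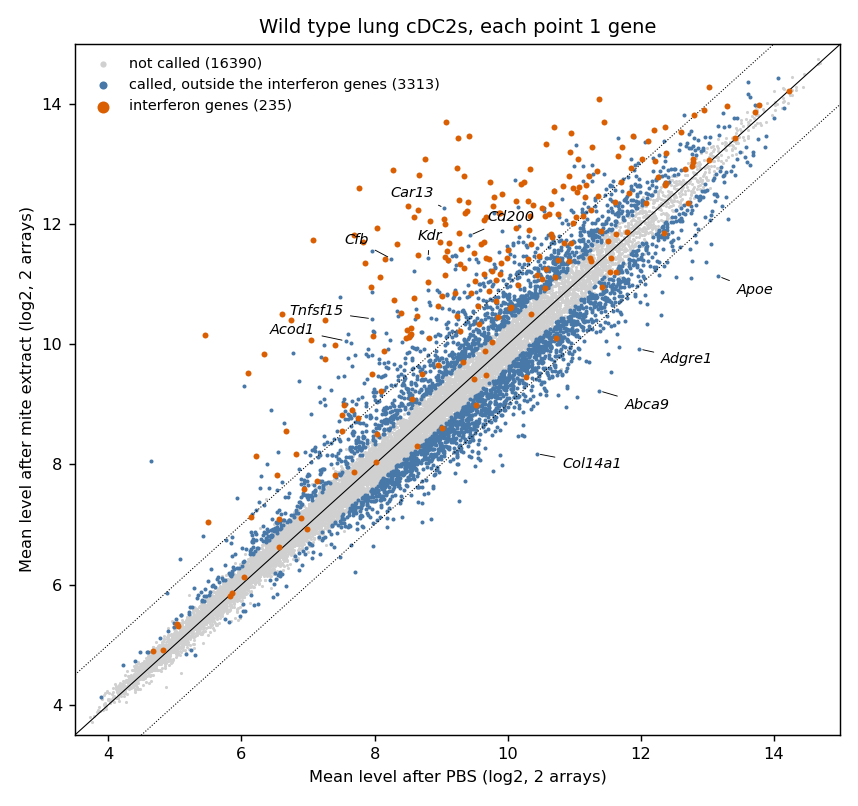
Mean log2 level of each gene after mite extract (y axis, 2 arrays) against its mean after PBS (x axis, 2 arrays) in wild type cDC2s. Orange points are the 235 interferon genes, blue points the 3313 other called genes and grey points genes not called; the dotted lines mark 2-fold differences. Of the 25 largest rises 23 are interferon genes, and blue points lie on both sides of the diagonal.

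The sequences shown here are regulatory windows and microRNAs of genes in groups described further on, from RefSeq on build GRCm38.p6. Each promoter was picked because a window of the gene holds the motif, passing over genes without it. The windows therefore do not stand for their groups. Nfkb2 has 3 windows and Ms4a7 has 2, and for each a window with a match is shown. Each promoter window runs from 250 bases before the annotated start of a transcript to 50 bases after it, and capitals mark the motif searched on either strand. Ifit3b, an antiviral effector on the interferon list, has 2 matches to the interferon-stimulated response element, GAAA and GAAA with any 2 bases between them, in its window (chr19:34607707-34608006, plus strand).
Ifit3b: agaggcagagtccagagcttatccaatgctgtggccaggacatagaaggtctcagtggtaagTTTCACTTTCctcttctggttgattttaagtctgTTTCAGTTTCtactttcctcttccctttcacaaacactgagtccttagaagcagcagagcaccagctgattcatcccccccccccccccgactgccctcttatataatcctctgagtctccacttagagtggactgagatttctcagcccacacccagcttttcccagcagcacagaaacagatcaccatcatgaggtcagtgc
Nfkb2, the NF-kB subunit of the non-canonical pathway, has the NF-kB motif, GGG and TTTCC with any 2 bases between them, in its window (chr19:46304487-46304786, plus strand).
Nfkb2: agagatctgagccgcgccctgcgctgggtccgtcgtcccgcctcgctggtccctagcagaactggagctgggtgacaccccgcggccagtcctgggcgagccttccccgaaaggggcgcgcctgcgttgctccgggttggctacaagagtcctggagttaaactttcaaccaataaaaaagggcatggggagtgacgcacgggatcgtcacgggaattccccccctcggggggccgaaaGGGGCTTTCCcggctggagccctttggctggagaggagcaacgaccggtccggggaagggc
Hmgcs1, an early enzyme of cholesterol synthesis, has the sterol response element TCACNCCAC and several CCAAT boxes (chr13:119690101-119690400, plus strand).
Hmgcs1: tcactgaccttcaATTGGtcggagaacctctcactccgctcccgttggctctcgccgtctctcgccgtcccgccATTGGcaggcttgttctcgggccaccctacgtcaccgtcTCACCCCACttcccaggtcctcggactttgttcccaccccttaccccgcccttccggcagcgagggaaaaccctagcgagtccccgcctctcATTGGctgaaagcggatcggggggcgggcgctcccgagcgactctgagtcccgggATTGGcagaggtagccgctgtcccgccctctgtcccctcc
Ms4a7, a macrophage membrane protein whose transcript fell, has the AP-1 motif TGANTCA (chr19:11334646-11334945, minus strand).
Ms4a7: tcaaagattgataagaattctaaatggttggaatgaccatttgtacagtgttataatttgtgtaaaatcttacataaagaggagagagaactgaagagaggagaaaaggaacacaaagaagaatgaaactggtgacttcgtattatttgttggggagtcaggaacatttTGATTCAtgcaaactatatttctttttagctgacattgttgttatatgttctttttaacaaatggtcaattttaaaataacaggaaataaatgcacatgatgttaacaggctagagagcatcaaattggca

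Over all 19177 windows of 15614 genes, the interferon motif occurred in 3.27%, the NF-kB motif in 1.57%, the AP-1 motif in 6.90%, the sterol element in 1.18% and CCAAT in 37.4%. The interferon motif occurred in 29.7% of the 192 windows of interferon genes that rose. It occurred in 3.67% of the 1470 windows of other genes that rose and in 4.39% of the 296 windows of those that rose at least 2-fold. The NF-kB motif was found in 3.2% and 4.05% of the same sets of windows, against 1.45% of the 1930 windows of genes that fell and 2.94% of the 204 windows of those that fell at least 2-fold. The AP-1 motif occurred in 13.7% of the windows of genes that fell at least 2-fold, in 6.06% of those of all genes that fell and in 13.5% of those of interferon genes that rose. A match is a description of letters, not of a site in use, and these shares were not tested.

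The largest rises outside the interferon list included a complement factor, a cell surface antigen, a carbonic anhydrase and several receptors. Ly6i, a Ly6 family surface protein, read 8.09 and 7.84 after PBS and 11.57 and 11.53 after mite extract, a difference of 3.59 ± 0.24 (adjusted p = 3.95e-07). The wider interferon rule by family name set Ly6i aside. Car13, a cytosolic carbonic anhydrase, read 9.01 and 9.08 after PBS and 12.17 and 12.37 after mite extract and rose by 3.22 ± 0.12 (adjusted p = 5.14e-09). In both genes the treated arrays lay together, more than 2 units above both PBS arrays. Cfb, complement factor B of the alternative pathway, read 8.28 and 8.21 after PBS and 11.38 and 11.48 after mite extract, a rise of 9.08-fold (95% interval 7.64 to 10.8).

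Gpr33, a chemoattractant receptor-like gene, read 8.27 and 7.65 after PBS and 10.77 and 10.99 after mite extract, and its PBS arrays stood further apart from each other than its treated arrays. Kdr, the VEGF receptor best known from endothelium, read 8.72 and 8.89 after PBS and 11.35 and 11.52 after mite extract and rose by 2.63 ± 0.13. Cxcr5, the receptor for the B cell follicle chemokine CXCL13, read 7.06 and 7.34 after PBS and 9.71 and 9.88 after mite extract and rose by 2.60 ± 0.13. All of these rises were chosen as genes whose groups do not overlap. Tnfsf15, the TNF family ligand TL1A that costimulates T cells, rose by 2.46 ± 0.16 (adjusted p = 3.15e-07) from 7.84 and 8.09 after PBS to 10.57 and 10.28 after mite extract. Acod1, the enzyme that makes itaconate, rose by 2.49 ± 0.20. B3gnt5, which builds lacto-series glycolipids, rose by 2.39 ± 0.14. Heatr9, Insl6 and Slc44a5, a choline transporter-like gene, rose by 2.74, 2.53 and 2.48.

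The largest falls were led by Col14a1, a collagen, which read 10.32 and 10.56 after PBS and 7.89 and 8.47 after mite extract, a difference of -2.26 ± 0.20 (adjusted p = 5.39e-06). Abca9, a lipid transporter, read 11.32 and 11.43 after PBS and 9.39 and 9.07 after mite extract and Adgre1, the macrophage antigen F4/80, read 11.83 and 12.13 after PBS and 9.88 and 9.96 after mite extract. The falls were chosen by the same rule of no overlap. Il1rl2, the receptor for IL-36, read 10.96 and 10.79 after PBS and 9.33 and 8.58 after mite extract, a difference of -1.92 ± 0.20. Itgb5, an integrin subunit that binds vitronectin, read 10.82 and 11.27 after PBS and 8.88 and 9.37 after mite extract, a difference of -1.92 ± 0.17. The others of the 12 were Apoe, Fcrls, F13a1, Ms4a7, Cd163, C1qc and C5ar1, between -2.03 and -1.77. Adgre1, Apoe, F13a1, Ms4a7, Cd163 and C1qc are also on the list of monocyte and interstitial macrophage markers described below. The part of such markers in these falls was not tested. C5ar1, the receptor for complement C5a, had treated arrays further apart than its PBS arrays, and its difference became -1.43 without PBS sample 2 (adjusted p = 0.070) and -1.01 without treated sample 1 (adjusted p = 0.015).

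**Figure D2:**
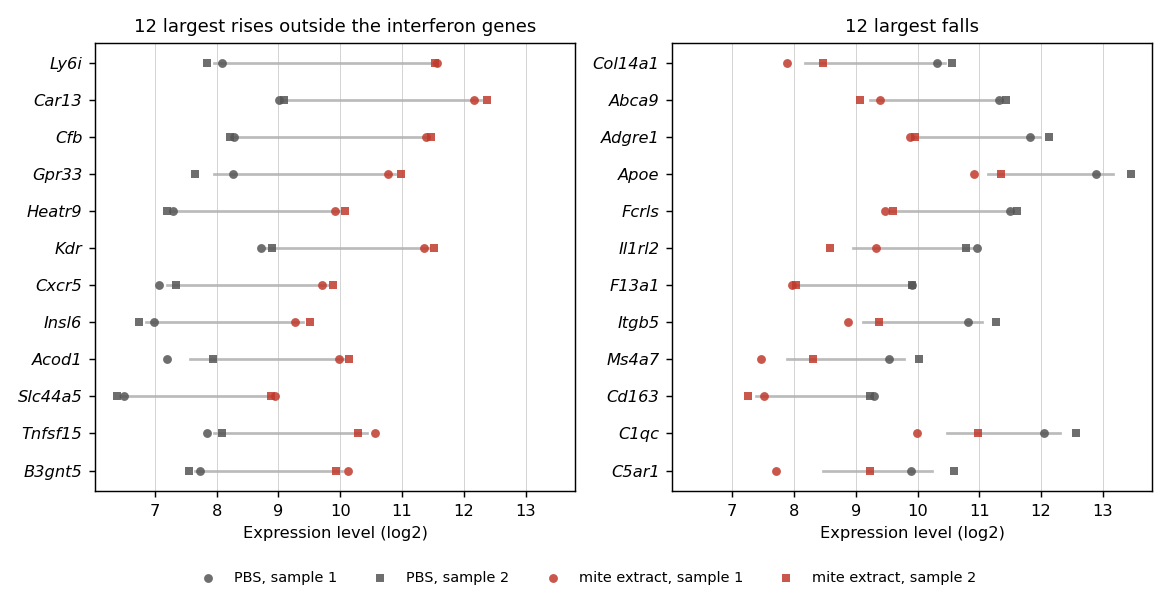
Log2 levels on each wild type array for the 12 largest rises outside the interferon list (left) and the 12 largest falls (right). Grey symbols are PBS arrays and red symbols mite extract arrays, with circles for sample 1 and squares for sample 2; grey lines join the group means. Genes were chosen with non-overlapping groups, and C5ar1 has the widest spread between its treated arrays among the 12 falls. Adgre1, Apoe, F13a1, Ms4a7, Cd163 and C1qc are also monocyte and interstitial macrophage markers.

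The label was checked against transcripts that define the gate and the lineage. Itgax (CD11c) read 12.87 and 12.91 after PBS and 12.63 and 12.67 after mite extract, and H2-Ab1, an MHC class II chain, read 14.29 and 14.25 after PBS and 14.23 and 14.23 after mite extract. Neither was called. Flt3 and Irf4, a growth factor receptor and a transcription factor of the lineage, differed by -0.19 (adjusted p = 0.48) and -0.08 (adjusted p = 0.72). Itgam, which encodes the CD11b used in the gate, fell from 12.11 and 12.02 after PBS to 10.92 and 11.10 after mite extract. Of 28 cDC2 markers, 5 rose (3 without PBS sample 1, 3 without PBS sample 2, 3 without treated sample 1 and 3 without treated sample 2) and 10 fell. Of 18 cDC1 markers 4 rose and 7 fell. Xcr1, the chemokine receptor of cDC1s, read 9.80 and 9.14 after PBS and 9.82 and 9.23 after mite extract and was not called, and Clec9a, a receptor for dead cells, rose by 0.62 ± 0.19, which became 0.97 without PBS sample 1 (adjusted p = 0.0020), 0.27 without PBS sample 2 (adjusted p = 0.29), 0.53 without treated sample 1 (adjusted p = 0.15) and 0.70 without treated sample 2 (adjusted p = 0.065).

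Markers of monocytes and interstitial macrophages moved with treatment, although the gate excluded Ly6C+ and CD64+ cells. Of 30 measured, 21 fell and 5 rose, with a median difference of -1.17. The mean log2 level of the list was 10.93 and 11.12 on the PBS arrays and 10.17 and 10.43 on the treated arrays, so the groups did not overlap. Fcgr1, which encodes CD64 and is on the interferon list, rose from 8.72 and 9.30 after PBS to 10.61 and 10.99 after mite extract. Mertk, a defining macrophage receptor, read 9.08 and 9.52 after PBS and 8.51 and 8.91 after mite extract, a difference of -0.59 ± 0.17 that became -0.37 without PBS sample 2 (adjusted p = 0.21) and -0.39 without treated sample 1 (adjusted p = 0.20). An array has no true 0, so the absence of a cell type could not be read from it. In bulk RNA fewer cells of a type and less RNA per cell cannot be told apart, and the part of these markers in the falls described further on was not tested.

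Markers of other cell types were also called. Of 29 markers of epithelium, endothelium and stroma 11 fell (6 without PBS sample 2 and 7 without treated sample 2), among them Sftpb (-0.70), Vwf (-0.69) and Sftpc (-0.59), while Kdr rose. Their mean level was 9.02 and 9.22 after PBS and 8.99 and 8.75 after mite extract. Of 24 neutrophil markers 5 rose (3 without PBS sample 1 and 3 without treated sample 2) and 2 fell (1 without PBS sample 2 and 1 without treated sample 1), and of 24 T and NK markers 7 rose and 2 fell. Over all genes 8.35% rose and 9.23% fell. Of the neutrophil markers 20.8% rose and 8.33% fell, and of the T and NK markers 29.2% rose and 8.33% fell. The falls in both lists were thus near the share over all genes. Acod1, given above among the largest rises, is also on the neutrophil list and was counted there as a rise. Neutrophil markers had means of 7.39 and 7.61 against 7.70 and 7.67, and T and NK markers 7.32 and 7.38 against 7.55 and 7.54. Cd3e, the T cell receptor chain, read 7.65 and 7.91 after PBS and 7.67 and 7.68 after mite extract and was not called.

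Receptors that sense and take up allergen were lowered in several families. C-type lectins bind sugars on mites, fungi and glycoproteins, and 19 of 36 fell while 4 rose. Mrc1, the mannose receptor, read 12.11 and 12.09 after PBS and 10.20 and 10.49 after mite extract, a difference of -1.75 ± 0.11 (adjusted p = 3.86e-07). Mrc1 is also a macrophage marker, and without it 18 of 35 lectins fell. Cd209c, Cd209d and Cd209b, mouse relatives of DC-SIGN, differed by -1.58, -1.47 and -1.43, and Clec4a2 by -1.25. These Cd209 genes are near-identical in parts, so one probeset may read more than one of them. In contrast Ly75 (DEC-205), an endocytic receptor of maturing dendritic cells, rose from 10.18 and 10.15 after PBS to 12.11 and 11.82 after mite extract, a difference of 1.80 ± 0.14.

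Scavenger and efferocytosis receptors, which clear lipoproteins and dying cells, fell in 14 of 26 cases and rose in 1 (0 without PBS sample 1, 0 without PBS sample 2 and 0 without treated sample 2). Lrp1, a large endocytic receptor, read 12.35 and 12.45 after PBS and 11.39 and 11.34 after mite extract, Stab1 fell to a difference of -1.44 and Pros1, a bridging ligand for dying cells, to -1.21. Without the 4 members that are also macrophage markers, 10 of 22 fell. Of 27 Fc receptor and complement genes 13 fell and 3 rose. Fcgr3 and Fcgr2b, an activating and an inhibitory IgG receptor, differed by -1.28 ± 0.13 and -0.92 ± 0.08. C2 rose by 0.58 beside the Cfb already given. Without 5 macrophage markers, 9 of 22 fell.

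Paired inhibitory and activating receptors of myeloid cells followed the same course, with 19 of 37 lower and 3 higher. Lilra5 read 9.24 and 9.47 after PBS and 7.70 and 7.74 after mite extract, Cd33 differed by -1.45 ± 0.14 and Siglece, an inhibitory sialic acid receptor, by -1.41 ± 0.13. Treml2 rose by 1.26 ± 0.15. Without the 1 member that is also a macrophage marker, 18 of 36 fell. Macrophage markers moved the same way as the falls in the lectin, scavenger, Fc and myeloid receptor lists, and their part was not tested.

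Toll-like receptors split. Of 22, 8 fell (5 without PBS sample 1 and 5 without PBS sample 2) and 5 rose (2 without PBS sample 1, 2 without PBS sample 2 and 2 without treated sample 2). Tlr8, a sensor of single-stranded RNA, read 10.06 and 10.26 after PBS and 8.82 and 9.16 after mite extract, a difference of -1.17 ± 0.15, and Tlr2, for bacterial lipoproteins, differed by -0.69. Traf6 and Myd88, which relay signals from these receptors, rose by 0.84 ± 0.11 and 0.71 ± 0.11. Ly96, Tlr9 and Tlr7 rose by 0.85, 0.84 and 0.69, which became 0.45, 0.44 and 0.31 without treated sample 2. Tlr4, the sensor of endotoxin, differed by -0.63, and by -0.37 without PBS sample 1 (adjusted p = 0.16) and -0.56 without treated sample 1 (adjusted p = 0.083).

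**Figure D3:**
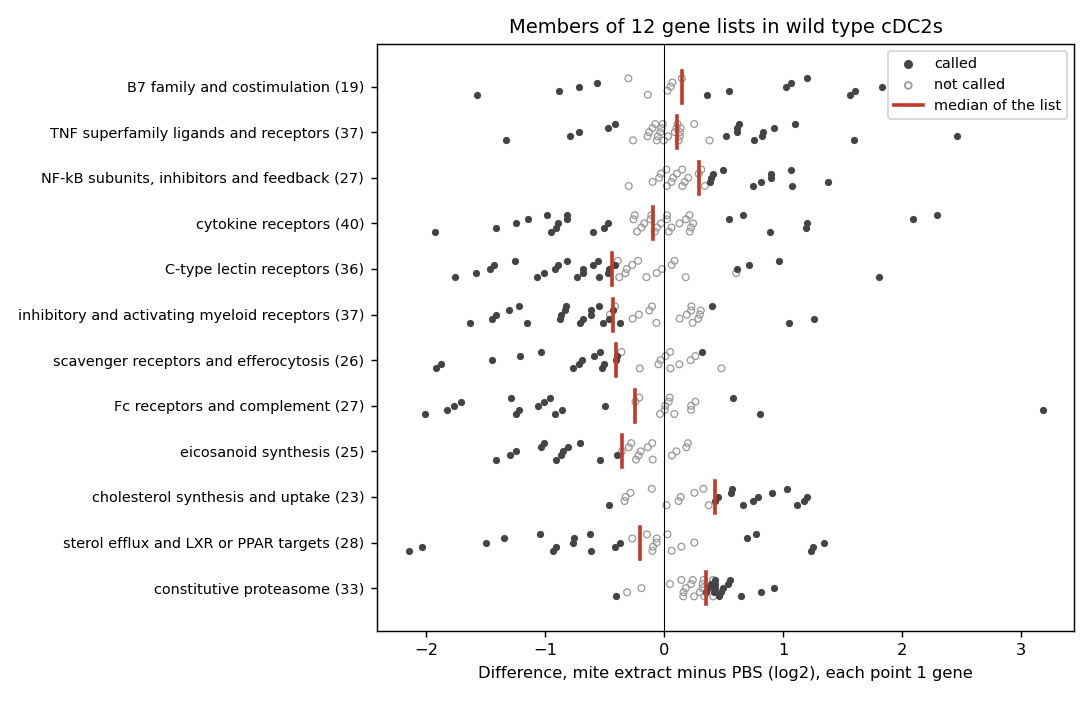
Difference of each measured member (x axis, log2, mite extract minus PBS) of 12 gene lists. Filled points passed the threshold, open points did not and red bars are the medians of the lists. The lectin, myeloid, scavenger, Fc and cytokine receptor lists have medians between -0.44 and -0.09, and the cholesterol synthesis list has a median of 0.43.

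Of 27 genes of the NF-kB system 11 rose (7 without PBS sample 1) and 0 fell (1 at limma's unadjusted p under 0.05). The largest were the ubiquitin ligase Birc2 (1.38), the subunit Relb (1.08) and the adaptor Traf2 (1.07 ± 0.12). Nfkb2 read 11.09 and 11.28 after PBS and 12.04 and 12.14 after mite extract and rose by 0.90 ± 0.11. Ikbkb, a kinase that releases NF-kB, rose by 0.41, which became 0.39 without PBS sample 1 (adjusted p = 0.20), 0.44 without PBS sample 2 (adjusted p = 0.13), 0.37 without treated sample 1 (adjusted p = 0.17) and 0.46 without treated sample 2 (adjusted p = 0.100). The subunit Rel and the inhibitor Nfkbia differed by 0.17 (adjusted p = 0.20) and 0.15 (adjusted p = 0.22) and were not called.

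Immediate early factors respond to stimulation within minutes and also to tissue digestion. Of 28 measured, 13 fell (7 without PBS sample 1) and 3 rose. Fosl2 read 12.21 and 12.46 after PBS and 11.40 and 11.78 after mite extract and Zfp36l2, an RNA-binding decay factor, differed by -0.73. Among feedback regulators of MAP kinase signalling, 8 of 21 rose and 5 fell. Dusp14, a phosphatase, read 9.73 and 10.26 after PBS and 11.71 and 11.57 after mite extract, a rise of 1.65 ± 0.17, and the Ras inhibitors Rasa4 and Rasa2 rose by 1.48 and 1.33. Dusp6, the ERK phosphatase, fell to a difference of -1.09 ± 0.13. In the cytokine signalling list 6 of 28 rose and 3 fell (1 without PBS sample 1). The falls, 10.7% of that list, were near the 9.23% over all genes. Stat4, which relays IL-12 signals, read 11.09 and 10.91 after PBS and 13.04 and 12.89 after mite extract and rose by 1.96 ± 0.12. Its groups did not overlap, as in 52.6% of all genes, and the wider interferon rule by family name set Stat4 aside.

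Among genes that deliver signals to T cells, several rose at least 2-fold. Of 19 B7 family and related costimulators 9 rose and 4 fell. Cd200, a ligand that restrains myeloid cells, read 9.40 and 9.46 after PBS and 11.82 and 11.80 after mite extract, a rise of 2.38 ± 0.12 (adjusted p = 3.79e-08). Cd70, the ligand of CD27 on T cells, read 8.12 and 8.35 after PBS and 9.84 and 10.29 after mite extract, a rise of 1.83 ± 0.16. Both genes had treated arrays well above both PBS arrays. Btla and Slamf1 rose by 1.20 and 1.02. Of the falls, Cd101 read 10.31 and 10.14 after PBS and 9.06 and 8.25 after mite extract, and Vsir, the inhibitory ligand VISTA, differed by -0.88 ± 0.11.

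In the TNF superfamily 11 of 37 rose and 5 fell (3 without treated sample 1). Besides Tnfsf15, the receptor Tnfrsf4 (OX40) rose by 1.59 ± 0.13, Tnfrsf18 (GITR) by 0.92 and Tnf by 0.84. Tnfsf13b, which encodes the B cell survival factor BAFF, went the other way and read 10.41 and 10.72 after PBS and 9.19 and 9.29 after mite extract. Notch pathway genes, which steer both cDC2 development and T helper fate, were lower in 7 of 21 cases (3 without PBS sample 1 and 3 without treated sample 2). Dll4, a Notch ligand, was the member that rose, by 0.89 ± 0.13 from 8.34 and 8.53 after PBS to 9.36 and 9.29 after mite extract, and Notch1 fell to a difference of -0.53. Jag1 and Jag2, the ligands linked to type 2 priming, differed by 0.02 (adjusted p = 0.94) and -0.07 (adjusted p = 0.78).

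Of 46 cytokine genes 9 rose (5 without PBS sample 1) and 5 fell (3 without PBS sample 2). The falls, 10.9% of the list, were near the 9.23% over all genes. Il27, the p28 subunit of IL-27, read 8.20 and 8.49 after PBS and 9.22 and 9.74 after mite extract and rose by 1.13 ± 0.16. Inhba, a subunit of activin A, rose by 1.32 ± 0.19 and Il1rn, the IL-1 receptor antagonist, by 1.29 ± 0.16. Hgf and Pdgfb, growth factors for epithelium and mesenchyme, differed by -0.95 and -0.67. The type 2 cytokine genes Il4 and Il13 differed by 0.13 (adjusted p = 0.46) and -0.04 (adjusted p = 0.87), and neither was called. The epithelial alarmins Il33, Tslp and Il25 differed by 0.35, 0.07 and -0.13 (adjusted p = 0.12, 0.70 and 0.60). Il10 and Il1b differed by -0.28 (adjusted p = 0.52) and -0.05 (adjusted p = 0.79).

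Cytokine receptors shifted in both directions, with 7 of 40 higher and 13 lower. Il12rb2, a chain of the IL-12 receptor, read 9.31 and 9.14 after PBS and 11.35 and 11.28 after mite extract, a rise of 2.09 ± 0.14. Il21r and Met, the HGF receptor, rose by 1.19 ± 0.16 and 1.20 ± 0.14. Lifr, the receptor for leukaemia inhibitory factor, read 10.56 and 10.57 after PBS and 9.23 and 9.09 after mite extract, a difference of -1.41 ± 0.14. Tgfbr1 and Tgfbr2, the TGF-beta receptor pair, both fell, to differences of -0.95 and -0.89. Csf1r, the receptor for the macrophage growth factor, fell to -1.15 beside the fall of macrophage markers. Il4ra, the receptor of IL-4 and IL-13, and Crlf2, that of TSLP, differed by 0.20 (adjusted p = 0.38) and -0.03 (adjusted p = 0.92).

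Of 28 chemokine genes 8 rose (4 without PBS sample 1 and 4 without treated sample 2) and 4 fell. Cxcl3, a neutrophil attractant, rose by 1.04 ± 0.17 and Ccl4 by 0.77 ± 0.13. The largest fall in the list was -1.72. Cxcl2, another neutrophil attractant, fell to a difference of -0.58, which became -0.21 without treated sample 1 and -0.95 without treated sample 2. Ccl17, an attractant of T helper 2 cells, differed by 0.18 (adjusted p = 0.087). Receptors for chemokines and lipid attractants fell in 12 of 51 cases and rose in 5 (3 without PBS sample 2). Ccr2, which draws cells to inflamed tissue, read 12.40 and 12.14 after PBS and 11.01 and 11.31 after mite extract, a difference of -1.11 ± 0.12. Ccr2 is also on the list of monocyte and macrophage markers, and without it 11 of 50 receptors fell. Ccr1, Cysltr1 and Ltb4r1, the last 2 being leukotriene receptors, differed by -0.98, -0.91 and -0.81. The rises among these receptors, 9.8%, were near the 8.35% over all genes.

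Adhesion molecules fell in 18 of 46 cases and rose in 7 (4 without PBS sample 1, 4 without treated sample 1 and 3 without treated sample 2). Emb (embigin), an adhesion protein of the immunoglobulin superfamily, read 12.09 and 11.90 after PBS and 10.78 and 10.62 after mite extract. Itga9 and Itga8 differed by -1.50 and -1.26 ± 0.16, and Cd37, a tetraspanin, by -1.12. Genes of the actin and tubulin skeleton went up in 18 of 62 cases and down in 13 (6 without PBS sample 1 and 8 without treated sample 2). Cdc42ep3, an effector of Cdc42, read 9.23 and 8.94 after PBS and 10.64 and 11.01 after mite extract and rose by 1.74 ± 0.14, and Swap70, a Rac regulator of migrating dendritic cells, by 1.22 ± 0.11. Fscn1 (fascin), which bundles actin in dendrites of mature cells, rose by 0.76.

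Sema7a, a membrane semaphorin, read 10.50 and 10.60 after PBS and 12.25 and 12.28 after mite extract and rose by 1.72 ± 0.13, whereas Sema3c differed by -1.23 ± 0.21 and Plxna4 by -1.11 ± 0.13. In that list of semaphorins, plexins and VEGF receptors 5 of 38 rose and 8 fell (5 without PBS sample 1, 5 without PBS sample 2, 5 without treated sample 1 and 5 without treated sample 2). Of 56 matrix and protease genes 8 rose and 13 fell. Serpinb9, an inhibitor of granzyme B, read 11.10 and 11.17 after PBS and 13.07 and 12.88 after mite extract, and its relatives Serpinb9b and Serpinb6b rose by 1.90 and 1.71. These serpins share sequence, so their probesets may not be fully separate. Plat, the tissue plasminogen activator, and the protease Mmp25 rose by 1.58 ± 0.23 and 1.61 ± 0.12. Timp2 and Fn1, an inhibitor of metalloproteases and fibronectin, differed by -1.52 and -1.60. Fn1 is also on the list of monocyte and macrophage markers, and without the 2 such members 11 of 54 matrix and protease genes fell.

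The MHC class II chain H2-Aa differed by -0.04 (adjusted p = 0.79), as H2-Ab1 did by -0.04 (adjusted p = 0.76). Of 15 genes of class II and CD1 presentation 4 rose and 2 fell (0 without PBS sample 1, 1 without PBS sample 2 and 1 without treated sample 2). Cd1d1, which presents lipids to NKT cells, read 9.08 and 9.10 after PBS and 10.78 and 10.89 after mite extract and rose by 1.75 ± 0.14, and its near-copy Cd1d2, whose probes may bind both transcripts, rose by 1.16 ± 0.13. Rfx5, a factor needed for class II transcription, rose by 0.63. Cathepsins and lysosomal hydrolases, which cut antigen and glycans, fell in 18 of 52 cases and rose in 9 (3 without PBS sample 1, 5 without PBS sample 2 and 3 without treated sample 2). Ctsd, an aspartic protease, read 11.58 and 11.86 after PBS and 10.89 and 10.72 after mite extract, and the glycan-degrading Sgsh and Hexa differed by -1.10 ± 0.13 and -0.85 ± 0.10. Cst7, an inhibitor of cathepsins, rose by 1.35 ± 0.13. Of 33 subunits and assembly factors of the constitutive proteasome 15 rose (6 without PBS sample 2 and 8 without treated sample 2) and 1 fell (0 without PBS sample 1, 0 without PBS sample 2, 0 without treated sample 1 and 0 without treated sample 2), with the largest rises in Psma5 (0.92 ± 0.16) and Psmd7 (0.81 ± 0.14).

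Of 23 genes of cholesterol synthesis and uptake 12 rose and 1 fell (0 without PBS sample 1, 0 without PBS sample 2 and 0 without treated sample 2), with a median difference of 0.43. Idi1 read 11.11 and 11.18 after PBS and 12.37 and 12.32 after mite extract, Fdft1 rose by 1.04 ± 0.11 and Hsd17b7 by 1.12 ± 0.11. Each makes an intermediate between mevalonate and cholesterol. Groups did not overlap for any of the 3, as for 52.6% of all genes. Srebf2, the main transcription factor of the pathway, differed by 0.12 (adjusted p = 0.45). Of the 19 list members with a promoter window 18 held a CCAAT box, 72.0% of their 25 windows against 37.4% of all windows, and Hmgcs1 was the 1 with the sterol element as searched. Of 25 genes of fatty acid synthesis and desaturation 2 rose and 5 fell (3 without PBS sample 2 and 3 without treated sample 2), with a median difference of -0.20, and the desaturase Fads1 differed by -1.16 ± 0.13.

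Genes of sterol efflux and targets of the LXR and PPAR receptors fell in 13 of 28 cases and rose in 5. Abca1, the transporter that exports cholesterol, differed by -1.34 ± 0.21, and Pltp, a phospholipid transfer protein, by -1.04 ± 0.16. Rxra, the partner receptor of both, read 9.34 and 9.52 after PBS and 8.38 and 8.62 after mite extract. Ch25h, which makes 25-hydroxycholesterol, rose by 1.35 ± 0.21 from 8.71 and 8.47 after PBS to 9.54 and 10.33 after mite extract, and Fabp5 and Fabp4, fatty acid carriers, rose by 1.23 and 1.25. Without the 1 member that is also a macrophage marker, 12 of 27 fell, and the part of macrophage markers was not tested.

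Eicosanoid genes, which make and degrade prostaglandins and leukotrienes, fell in 12 of 25 cases and rose in 0, against 9.23% and 8.35% of all genes (0 at limma's unadjusted p under 0.05). Hpgd, which inactivates prostaglandins, read 12.59 and 12.47 after PBS and 11.33 and 10.90 after mite extract, a difference of -1.41 ± 0.14 (adjusted p = 1.95e-05). Alox5, the first enzyme of leukotriene synthesis, read 10.71 and 11.08 after PBS and 9.75 and 9.44 after mite extract, and its helper Alox5ap and the hydrolase Lta4h differed by -0.54 and -0.85. All 4 genes were lower on both treated arrays, and the groups of 52.6% of all genes did not overlap. Tbxas1, thromboxane synthase, differed by -1.01 ± 0.11. Ptgs2 (COX-2), the inducible enzyme, differed by -0.21 (adjusted p = 0.15).

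Among enzymes of the TCA cycle, itaconate and arginine 8 of 30 rose and 6 fell (3 without PBS sample 1 and 3 without treated sample 2). Arg2, the mitochondrial arginase, read 7.44 and 7.62 after PBS and 9.09 and 8.98 after mite extract, a rise of 1.51 ± 0.13, and Ido1, which degrades tryptophan, rose by 1.02 ± 0.11. Idh2, an isocitrate dehydrogenase, and Srm, a polyamine enzyme, differed by -0.70 and -0.68. Glycolytic genes fell in 7 of 33 cases (4 without PBS sample 1) and rose in 2 (5 without treated sample 1 and 1 without treated sample 2). Slc2a3, a glucose transporter, read 10.94 and 10.87 after PBS and 9.71 and 9.64 after mite extract, while Pfkfb3, which accelerates glycolysis, rose by 0.66 ± 0.12. Of 63 respiratory chain genes 1 rose (2 without treated sample 1) and 0 fell (6 at limma's unadjusted p under 0.05), below the share over all genes.

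Nucleotide signalling genes fell in 10 of 27 cases (6 without treated sample 1) and rose in 2. P2rx7, the ATP-gated channel that licenses IL-1 release, read 10.04 and 10.22 after PBS and 9.01 and 9.23 after mite extract, a difference of -1.01 ± 0.13. Entpd1 (CD39), which degrades extracellular ATP, differed by -0.78 ± 0.10. Genes that glucocorticoids induce fell in 10 of 17 cases and rose in 0 (0 at limma's unadjusted p under 0.05). Zbtb16 and Per1 differed by -0.98 and -0.79 ± 0.13, Fgfr1 by -0.98 ± 0.11 and the metallothionein Mt1 by -0.85 ± 0.09. Without the 1 glucocorticoid-responsive gene that is also a macrophage marker, 9 of 16 fell, and the part of macrophage markers was not tested. Among amino acid transporters 8 of 29 fell and 5 rose (1 without PBS sample 1, 3 without treated sample 1 and 2 without treated sample 2), with Slc43a2, a carrier of large neutral amino acids, at 10.25 and 10.22 after PBS and 8.94 and 8.80 after mite extract.

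Of 78 genes of DNA replication and mitosis 34 fell and 1 rose, but the number of falls rested on single arrays. It was 6 without PBS sample 1 and 9 without treated sample 2. Pola1, a subunit of DNA polymerase alpha, read 9.59 and 9.47 after PBS and 8.81 and 8.65 after mite extract. Ribosome biogenesis genes fell in 12 of 56 cases (4 without PBS sample 1, 7 without treated sample 1 and 4 without treated sample 2), with Dkc1 at -0.69 ± 0.13 and Polr1a at -0.62 ± 0.11. Of 51 ribosomal protein genes 1 fell (0 without PBS sample 1, 0 without PBS sample 2 and 6 without treated sample 1) and 0 rose (0 at limma's unadjusted p under 0.05). Of 30 cell cycle inhibitors and p53 targets 6 rose and 8 fell (4 without PBS sample 1, 4 without PBS sample 2, 5 without treated sample 1 and 3 without treated sample 2). The rises included Ccnd2 (1.16 ± 0.08), Plk2 (1.22 ± 0.12) and Cdkn2b (1.19 ± 0.13), and the falls Sesn1 (-0.77 ± 0.14) and Foxo3 (-0.64 ± 0.13). Ccnd2 encodes a cyclin, not an inhibitor of the cell cycle.

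Of 32 genes of the BCL2 family and death receptors 6 rose and 4 fell (0 without PBS sample 1, 0 without PBS sample 2 and 1 without treated sample 2). Bcl2l14, a BCL2 relative, read 8.09 and 7.86 after PBS and 10.36 and 10.09 after mite extract, a rise of 2.25 ± 0.14 (adjusted p = 2.41e-07). Bcl2l1, which encodes the survival protein BCL-XL, rose by 1.19 ± 0.15, and Apaf1, the scaffold of the apoptosome, by 0.95 ± 0.10. Heat shock and dissociation stress genes, which can also respond to cell isolation, rose in 9 of 16 cases (4 without PBS sample 1, 4 without PBS sample 2 and 4 without treated sample 2). Hsf2, a heat shock factor, read 9.74 and 9.29 after PBS and 11.38 and 11.45 after mite extract and rose by 1.90 ± 0.17, and Hsp90aa1 rose by 0.69 ± 0.12. Unfolded protein response genes fell in 7 of 32 cases (4 without PBS sample 2 and 4 without treated sample 2).

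The list of dendritic cell maturation and migration genes showed the highest share of rises after the interferon list itself, 41 of 52. Over all genes 8.35% rose. In the list 0 were lower (0 at limma's unadjusted p under 0.05), and the median difference was 0.97. Its members were chosen with earlier results of these data known, so the share was not independent of those results. Without the 3 members that are also interferon genes, 38 of 49 rose. Members not described so far included Dnase1l3 (2.38 ± 0.17), a DNA-degrading enzyme, Laptm4b (1.82 ± 0.14), a lysosomal membrane protein, and Mreg (1.36 ± 0.10), an organelle transport protein. Not all members of the list are named here. Cd83, a classic maturation marker, differed by 0.06 (adjusted p = 0.76) and was not called. Of 48 lineage transcription factors 9 rose and 8 fell (5 without PBS sample 2 and 5 without treated sample 1). Zfp366 (DC-SCRIPT), a dendritic cell factor, read 10.23 and 10.04 after PBS and 11.23 and 11.18 after mite extract and rose by 1.07 ± 0.12, and Spib rose by 1.05 ± 0.17. Cebpa, a myeloid factor, read 10.84 and 10.69 after PBS and 9.78 and 9.84 after mite extract, a difference of -0.95 ± 0.12, and Klf4, a factor required by a subset of cDC2s, differed by -0.50 ± 0.10. Batf3 and Bcl6 differed by 0.10 (adjusted p = 0.66) and 0.18 (adjusted p = 0.30).

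**Figure D4:**
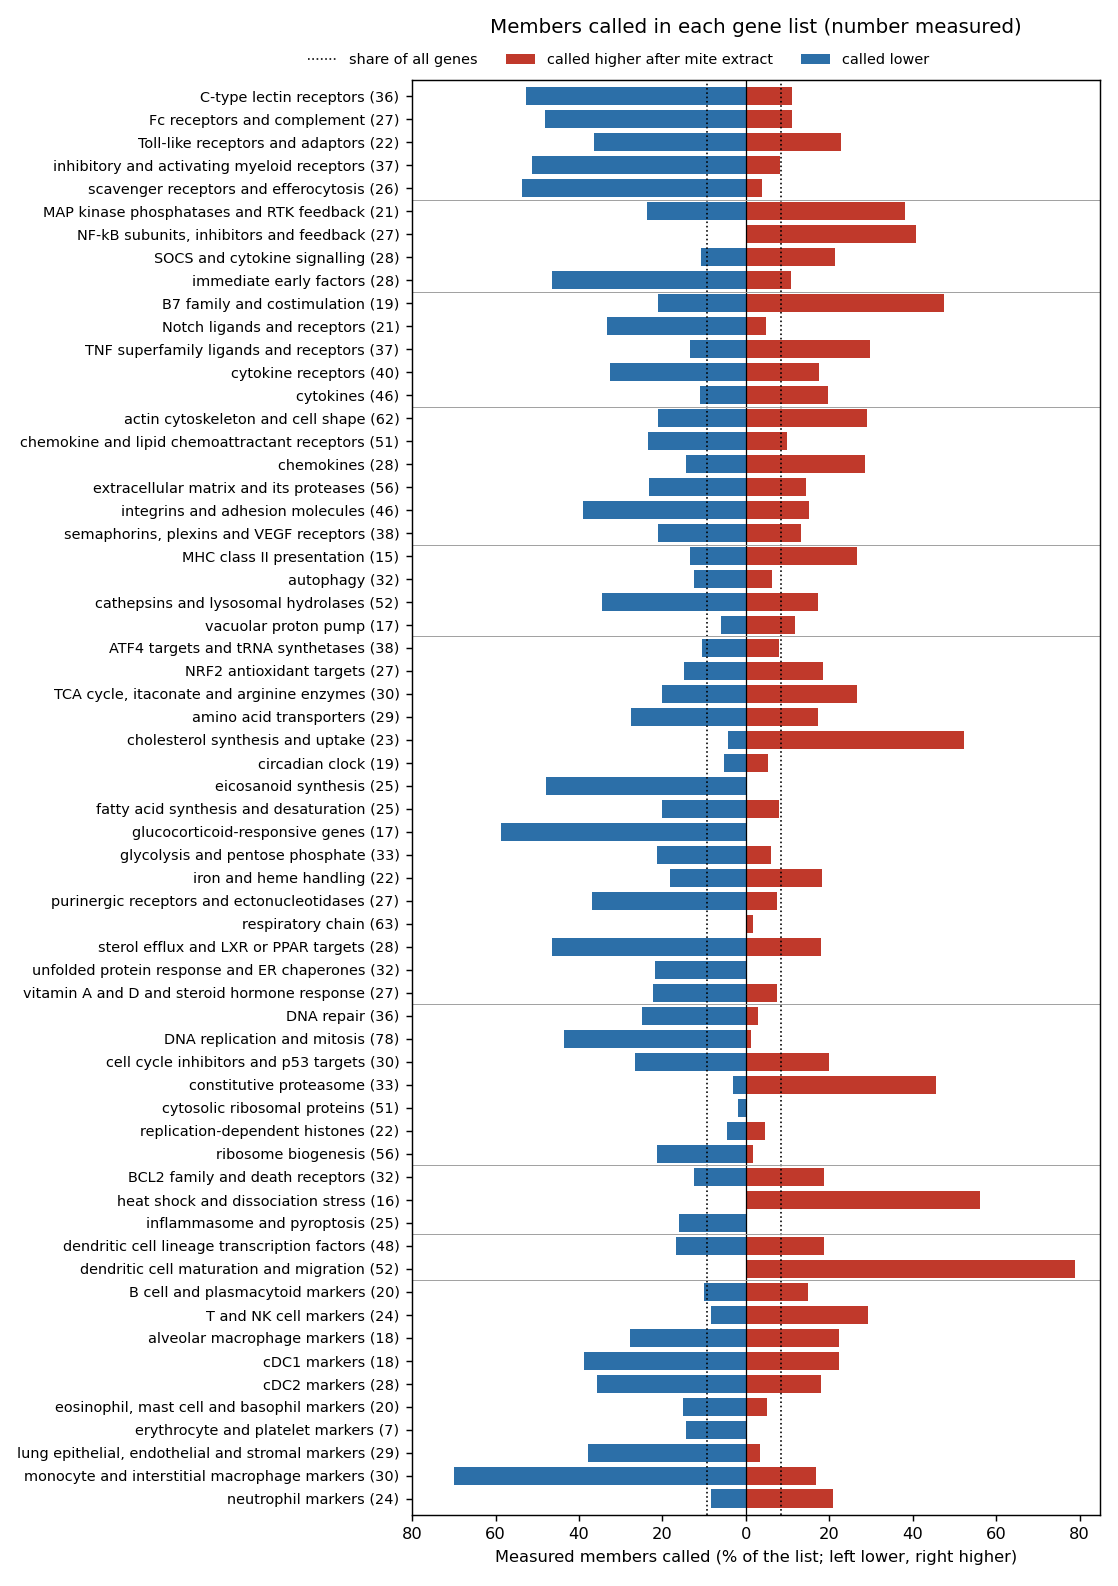
Share of the measured members of each gene list called higher (red, right) and lower (blue, left) after mite extract, in percent, with the number measured in brackets and lists grouped by role. Dotted lines mark the shares over all genes, 8.35% higher and 9.23% lower. The interferon list is not drawn. Lists and members were chosen with earlier results of these data known. Of the lists drawn, the maturation list has the longest red bar, and uptake receptors, eicosanoid, glucocorticoid-responsive and macrophage marker genes have long blue bars.

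Of 287 microRNA genes with a probeset 14 were called, 4.88% against 17.6% of all genes, with 11 higher (3.83% against 8.35%) and 3 lower. The difference between these shares was not tested. Their probesets read the precursor or host transcript on the array, not the mature microRNA. Mir155, whose product restrains inhibitors of inflammatory signalling, read 10.66 and 10.42 after PBS and 12.21 and 12.23 after mite extract, a rise of 1.68 ± 0.17 (adjusted p = 1.51e-05). Mir23a fell from 10.74 and 10.73 after PBS to 10.10 and 10.03 after mite extract, a difference of -0.67 ± 0.14. Mir27a, encoded next to it, differed by -0.51 ± 0.12, and by -0.47 without PBS sample 2 (adjusted p = 0.080) and -0.51 without treated sample 2 (adjusted p = 0.052). Their mature sequences, with the seed (bases 2 to 8) in capitals, lie at chr16:84714143-84714165, chr8:84208563-84208583 and chr8:84208727-84208747, all on the plus strand of GRCm38.p6, and the 3 seeds differ.
mmu-miR-155-5p: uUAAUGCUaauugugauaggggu
mmu-miR-23a-3p: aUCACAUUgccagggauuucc
mmu-miR-27a-3p: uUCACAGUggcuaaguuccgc

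Genes outside every list also stood apart. Saa3, an acute phase protein, read 7.85 and 7.55 after PBS and 9.24 and 10.40 after mite extract, with the treated arrays further from each other than the PBS arrays but above both. Il23r, the receptor of IL-23, read 5.94 and 5.91 after PBS and 7.66 and 7.22 after mite extract, a rise of 1.52 ± 0.14. Its probeset was dim on every wild type array. The median gene level was 7.88 and 7.94 after PBS and 7.92 and 7.87 after mite extract. Retnla, a resistin-like protein of type 2 inflammation, read 12.96 and 12.55 after PBS and 10.81 and 11.39 after mite extract, a difference of -1.65 ± 0.25 (adjusted p = 4.38e-04). These were chosen after their values were seen.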

How the data were processed

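Mouse Gene 1.0 ST arrays from Affymetrix were used, per the labels' protocols. The table deposited by the authors holds log2 expression values for 35556 probesets. The software recorded per the submitters' processing notes is R 3.2.1, oligo and RMA, without roles or order. RMA usually includes quantile normalization, which hides a shift common to most genes. Genome build and annotation of the table are not given in the sources used here.

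Of the probesets 21789 had 1 symbol in the platform annotation, 1621 several and 12146 none listed. Single-symbol probesets were named through RefSeq tables (19856 of 19938 genes), and of several probesets for a gene (999 genes) the brightest on average across the 7 arrays represented it. limma 3.58.1 in R 4.3.3 fitted 1 mean per group to all 7 arrays, with an intensity trend, and the script was tested on simulated data. Array medians ran from 7.60 to 7.69; the number of arrays limits the precision. Within wild type groups arrays correlated at 0.995 across genes, and between them at 0.973 to 0.977. The interferon list holds 282 genes and 62 other lists bring the total to 2295, of which 2038 had a level. The members and lists were chosen with earlier results of these data known. The text names the 12 largest rises and falls outside the interferon list whose groups do not overlap, the largest interferon rises for scale, up to 3 members of each list per direction with the smallest p, defining markers, and members that were not called; other genes named were chosen after their values were seen. Alternatives were the 4 wild type arrays alone, no intensity trend, robust variances, median centring, brighter genes only, the mean of all probesets, a stricter threshold, a replicate block and leaving out each wild type array.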

Additional observations from a re-analysis of the deposited data

How the results depend on the processing

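Leaving out each wild type array in turn gave 2333 to 3104 called genes, 2149 to 2916 of them outside the interferon list, and 483 to 637 outside the list that changed at least 2-fold. The lone array of such a group is assumed to vary like the other groups. At an adjusted p under 0.01 the counts were 2113 and 1930. The labels do not say whether samples with the same number belong together. Their deviations correlated at -0.233, and with 2 arrays per group this value cannot decide it. A replicate block gave 3118 called genes, 1468 higher and 1650 lower, with 2925 outside the interferon list. Pairing the samples crosswise, an alternative chosen after seeing the data, gave 3508 and 3314. Centring the arrays on their medians moved the median of all genes from 0.03 to 0.04 and gave 1734 rises and 1653 falls. Of the genes the naming rule covers 265 were called. None changed direction in the refits that held it, and 223 stayed called in each of them; the refit on brighter genes held 251, and the stricter threshold was applied to the counts, not to these genes. Leaving out PBS sample 1 ended the most calls among them, 30, and the cause was not tested. The number of arrays, 2 per wild type group, limits how small a difference could be called.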
